A study of Homo sapiens with 6 samples.

Results

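The 33 genes described here encode proteins that carry glucose across membranes, break it down to pyruvate and lactate, and store it as glycogen. They were chosen by name and arranged in 11 steps of the pathway, and each was read from the brightest of the probe sets that name it alone. All 33 were measured, among 19775 genes on the arrays. The samples were ARPE-19 cells, an established human line from retinal pigment epithelium, given SRPIN803 at 10 µM for 4 h (3 arrays) or the solvent DMSO at 0.1% for 4 h (3 arrays). SRPIN803 is known as an inhibitor of the splicing factor kinase SRPK1 and of protein kinase CK2, and every culture was grown in medium with serum. The labels do not say whether arrays of a group came from separate cultures, so each p-value reflects only how far these arrays differ, a spread that may be technical. The comparison asks which steps of glucose handling differ in transcript level after a short exposure to the compound.

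As background, glucose enters through facilitative transporters of the SLC2A (GLUT) family and is trapped by hexokinases, which phosphorylate it. Phosphofructokinase commits the sugar to glycolysis, and its allosteric activator fructose 2,6-bisphosphate is made and removed by the PFKFB enzymes and removed by TIGAR. The later enzymes split the sugar and harvest ATP, and lactate dehydrogenase interconverts pyruvate and lactate. The retinal pigment epithelium is known for passing glucose from the choroidal blood to the photoreceptors, and a branch from glucose 6-phosphate leads to glycogen.

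Of the 33 genes 3 fell after SRPIN803 and 0 rose, the hexokinase gene HK2, the transporter gene SLC2A6 and the phosphatase gene TIGAR. Genes were called at an adjusted p under 0.05 in limma, with Benjamini-Hochberg adjustment over all genes. The members' share called was 9.09%, against 5.84% of all genes called in either direction, 2.37% called lower and 3.46% called higher. Of the members 32 lay above the median level of all genes. With genes at or below it left out, 4 of 32 members were called (12.5%), against 1943 of 9887 genes (19.7%), so the order of the shares depended on this filter. In the fit over all genes the other 30 members were not called, and their log2 changes ran from -0.29 to 0.12. Over the 33 members the median log2 change was -0.0082, against 0.02 over all genes tested. The 3 called genes fall 1 each in the uptake, hexokinase and fructose 2,6-bisphosphate control steps, which hold 3, 3 and 4 members. These steps, 10 members in all, are named together because each holds a call. Their count therefore cannot show that calls gather in a stretch of the pathway. In cultures of this kind, fewer cells of a type and less RNA per cell cannot be told apart.

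**Figure D1:**
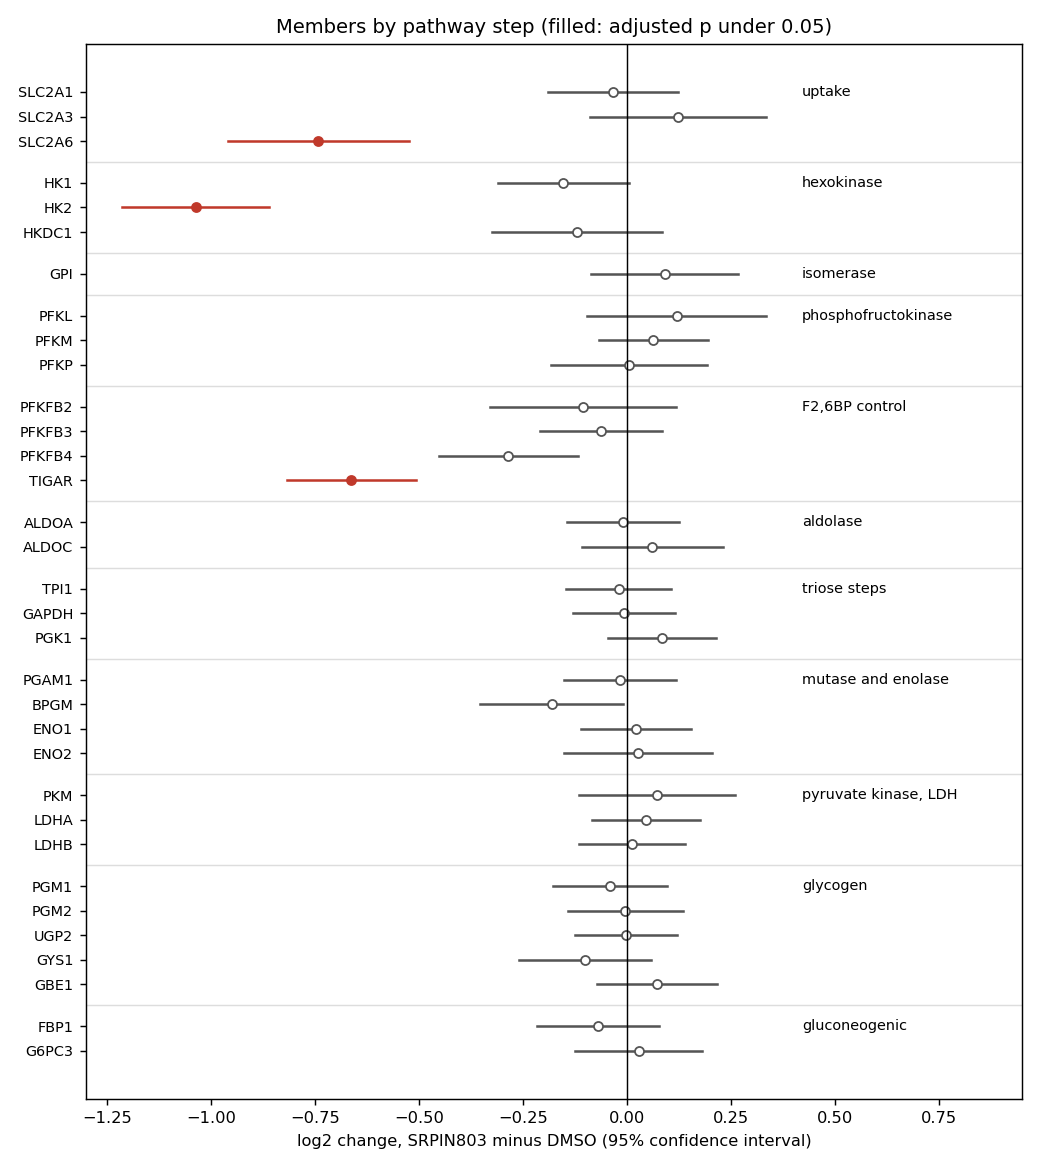
Log2 change of each of the 33 genes (SRPIN803 minus DMSO, points) with its 95% confidence interval from limma (lines), in the order of the pathway; filled red points have an adjusted p under 0.05. HK2 (-1.04), SLC2A6 (-0.74) and TIGAR (-0.66) stand left of 0, and PFKFB4 is the open point farthest to the left, at -0.29.

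The 6 arrays had medians of 5.25 to 5.28 (log2). Over all probe sets, Pearson's r was 0.996 to 0.998 for arrays of 1 group and 0.994 to 0.996 for arrays of different groups. Of 11 retinal pigment epithelium markers measured, 4 lay above the median level of all genes of 6.53 (MITF, OTX2, BEST1 and SERPINF1), while RPE65 at 2.33 and LRAT at 2.83, both of the visual cycle, were among the 7 below it. Keratin genes were above it in 3 of 4 cases and mesenchymal genes in 3 of 5, against 0 of 4 endothelial and 0 of 3 leukocyte markers. Of these markers MITF alone was called, at 10.40 ± 0.07 in SRPIN803 and 10.05 ± 0.09 in DMSO (SD, n = 3 each, limma adjusted p = 0.0312). The summed level of the 11 retinal pigment epithelium markers was 11.68 to 11.73 in the SRPIN803 arrays, against 11.41 to 11.54 in the DMSO arrays (log2). The sum was taken on unlogged values, so it mostly reads OTX2 (mean level 10.5) and MITF (10.2). The next brightest marker, SERPINF1, was at 6.75. Of the 11 markers, 8 had a log2 change above 0 and 3 below it. Their part in the results was not tested.

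The promoter windows of the 3 called genes are shown because these are the members that were called, and whether they are regulated together was not tested. Each window runs from 250 bases before to 50 after an annotated start in RefSeq (build GRCh38.p14). It is printed 5′ to 3′ on the gene's strand. Matches to CACGTG (an E-box read by MYC and MondoA family factors, among others) or to ACGTG are in capitals. ACGTG is a form of the core bound by hypoxia-inducible factors, and other forms of that core were not searched. Both strands were searched, and every CACGTG also holds ACGTG.
HK2, upstream start, chr2:74833877-74834176, plus strand: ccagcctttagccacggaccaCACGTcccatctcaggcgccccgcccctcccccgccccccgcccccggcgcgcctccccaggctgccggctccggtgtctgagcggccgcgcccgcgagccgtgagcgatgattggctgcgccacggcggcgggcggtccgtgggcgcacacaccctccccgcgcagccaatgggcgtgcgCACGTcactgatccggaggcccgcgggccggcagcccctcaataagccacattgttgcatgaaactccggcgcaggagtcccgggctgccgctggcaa
HK2, downstream start, chr2:74834920-74835219, plus strand: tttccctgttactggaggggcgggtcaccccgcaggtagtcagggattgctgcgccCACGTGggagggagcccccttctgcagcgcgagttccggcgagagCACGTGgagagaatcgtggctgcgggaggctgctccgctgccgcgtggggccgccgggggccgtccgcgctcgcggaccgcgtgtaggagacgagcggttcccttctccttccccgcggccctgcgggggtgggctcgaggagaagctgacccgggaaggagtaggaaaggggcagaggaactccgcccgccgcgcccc
TIGAR, chr12:4320963-4321262, plus strand: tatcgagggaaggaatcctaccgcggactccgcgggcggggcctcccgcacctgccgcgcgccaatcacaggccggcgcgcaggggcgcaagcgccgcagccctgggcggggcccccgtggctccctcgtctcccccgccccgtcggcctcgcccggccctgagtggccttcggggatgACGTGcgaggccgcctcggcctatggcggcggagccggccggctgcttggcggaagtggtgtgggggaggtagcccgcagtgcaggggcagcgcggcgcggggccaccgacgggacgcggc
SLC2A6, chr9:133479050-133479349, minus strand: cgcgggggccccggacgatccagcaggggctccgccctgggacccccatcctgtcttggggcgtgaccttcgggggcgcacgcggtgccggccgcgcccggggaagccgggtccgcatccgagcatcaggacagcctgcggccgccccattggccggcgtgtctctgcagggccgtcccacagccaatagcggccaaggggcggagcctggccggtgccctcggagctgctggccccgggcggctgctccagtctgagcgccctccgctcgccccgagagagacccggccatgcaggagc
The downstream HK2 window held CACGTG at 2 places, and the TIGAR and SLC2A6 windows held it at 0. ACGTG was present in both HK2 windows and in that of TIGAR, and the SLC2A6 window had no match to these letters. Windows were found for 31 of the 33 members, all but PFKFB2 and SLC2A3. CACGTG was present in 10 of their 57 windows (17.5%), against 7.26% of all 35116 windows, and ACGTG in 25 (43.9%), against 21.4%. By gene, 8 of 31 held CACGTG (25.8%, against 8.77% of all 27305 genes with a window, on the arrays or not). These were HK2 and 7 members that were not called, PFKFB3, ALDOA, ALDOC, GAPDH, LDHA, PGM2 and G6PC3. The members had more windows per gene than all genes, which can raise their share by gene. The G6PC3 windows overlap and each held CACGTG, which raises the share by window. Whether the shares differ was not tested. A match is a description of the sequence and says nothing of binding.

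The step named uptake held 3 transporters of the SLC2A family, of which SLC2A6 fell. SLC2A6 encodes GLUT6, a transporter found on lysosomal membranes, so it does not stand for glucose entry at the cell surface. Its log2 values were 8.16, 7.90 and 8.25 in the SRPIN803 arrays, against 8.87, 8.83 and 8.83 in the DMSO arrays. The groups did not overlap, and SRPIN803 replicate 2 was the lowest array. The level fell to 8.10 ± 0.18 in SRPIN803, against 8.84 ± 0.02 in DMSO (SD, n = 3 each), a 1.67-fold fall (95% confidence interval 1.44 to 1.94, limma adjusted p = 0.00602). Without SRPIN803 replicate 2 the log2 change was -0.64 ± 0.07 (SE) and was still called (limma adjusted p = 0.0103). The gene has 1 probe set here, which was called in the fit over all probe sets (adjusted p = 0.0133). That call was lost without DMSO replicate 1, 2 or 3, with the replicate number as a block, and at an adjusted p under 0.01.

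The other transporters of the set showed no change past the threshold. SLC2A1 encodes GLUT1, the transporter of both faces of the retinal pigment epithelium, and read 11.19, 11.37 and 11.34 in the SRPIN803 arrays, against 11.30, 11.33 and 11.37 in the DMSO arrays. The groups overlapped, and the 95% interval of its log2 change ran from -0.19 to 0.12. SLC2A3 encodes GLUT3, a high-affinity transporter best known from neurons, and read 8.36, 8.67 and 8.54 in the SRPIN803 arrays, against 8.32, 8.49 and 8.40 in the DMSO arrays. These ranges overlapped too, with a log2 change of 0.12 ± 0.09 (SE, limma adjusted p = 0.541). SLC2A3 has a near-identical copy in SLC2A14, so its probe sets may read both.

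Hexokinase was the step with the largest fall among the members. HK2 encodes the inducible hexokinase that binds mitochondria, and its log2 values were 7.14, 7.31 and 7.40 in the SRPIN803 arrays, against 8.30, 8.33 and 8.33 in the DMSO arrays. The SRPIN803 arrays were all the lower ones, by more than the spread of either group. The level fell to 7.29 ± 0.13 in SRPIN803, against 8.32 ± 0.02 in DMSO (SD, n = 3 each), a 2.05-fold fall (95% confidence interval 1.82 to 2.32, limma adjusted p = 0.000855). HK2 has 3 probe sets, and all 3 fell in the fit over all probe sets, where 2.22% of probe sets were called and 1.03% called lower. The second read 6.42, 6.55 and 6.47 in the SRPIN803 arrays, against 7.05, 7.15 and 7.21 in the DMSO arrays, and the dimmest read 5.67, 6.11 and 5.76 in the SRPIN803 arrays, against 6.46, 6.61 and 6.54 in the DMSO arrays. Their log2 changes were -0.65 ± 0.08 and -0.69 ± 0.12 (SE), with limma adjusted p of 0.00896 and 0.0303 over all probe sets, and the groups overlapped in neither.

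The other hexokinases did not pass the test. HK1, the constitutive isoform, read 10.77, 10.91 and 10.79 in the SRPIN803 arrays, against 11.01, 10.90 and 11.02 in the DMSO arrays. One pair of arrays crossed, SRPIN803 replicate 2 lying above DMSO replicate 2. The log2 change was -0.15 ± 0.07 (SE), with a limma adjusted p = 0.266 and a 95% interval from -0.31 to 0.0036. HKDC1, a hexokinase-like gene, read 7.34, 7.61 and 7.31 in the SRPIN803 arrays, against 7.50, 7.60 and 7.53 in the DMSO arrays, with SRPIN803 replicate 2 above all DMSO arrays. Its log2 change was -0.12 ± 0.09 (SE, limma adjusted p = 0.532).

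**Figure D2:**
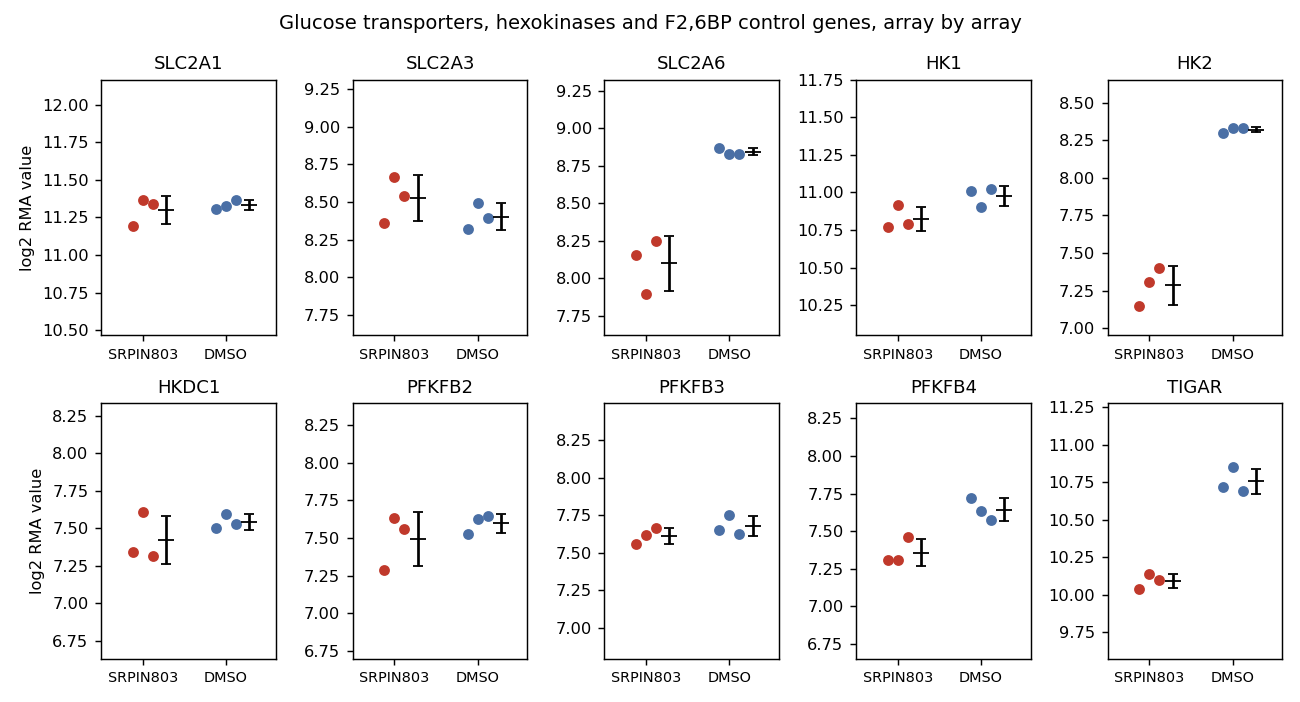
Log2 RMA value of each array (points, SRPIN803 in red and DMSO in blue) for the glucose transporters, the hexokinases and the genes that control fructose 2,6-bisphosphate (F2,6BP), with mean ± SD beside them (n = 3 each). All panels span the same height around the gene's mean. The groups are apart in SLC2A6, HK2, TIGAR and PFKFB4, and overlap in the others.

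The control of phosphofructokinase held the remaining fall. TIGAR encodes a phosphatase induced by p53 that removes fructose 2,6-bisphosphate, and its log2 values were 10.04, 10.14 and 10.10 in the SRPIN803 arrays, against 10.72, 10.85 and 10.69 in the DMSO arrays. The groups were far apart relative to their spread. The level fell to 10.09 ± 0.05 in SRPIN803, against 10.76 ± 0.09 in DMSO (SD, n = 3 each), a 1.58-fold fall (95% confidence interval 1.42 to 1.76, limma adjusted p = 0.00307). It has 1 probe set here.

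The PFKFB enzymes, which both make and remove fructose 2,6-bisphosphate, were not called, and PFKFB4 came nearest. It read 7.31, 7.31 and 7.46 in the SRPIN803 arrays, against 7.72, 7.63 and 7.57 in the DMSO arrays. The groups did not overlap, with a log2 change of -0.29 ± 0.07 (SE, limma adjusted p = 0.0629). The call depended on the setting: adjusted p was 0.0158 among genes above the median level and 0.0342 with a variance trend. A second, dim PFKFB4 probe set at a level of 4.64 differed by 0.05 ± 0.14 on the log2 scale (SE). PFKFB3, the inducible isoform with high kinase activity, differed by -0.06 ± 0.06 and PFKFB2 by -0.11 ± 0.10 on the log2 scale (SE), and the groups overlapped in both.

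The enzymes those signals act on did not pass the test. Among the 3 phosphofructokinase genes, which encode the liver (PFKL), muscle (PFKM) and platelet (PFKP) subunits, 0 were called. PFKL read 8.81, 8.72 and 8.54 in the SRPIN803 arrays, against 8.68, 8.44 and 8.60 in the DMSO arrays. PFKP read 11.65, 11.90 and 11.80 in the SRPIN803 arrays, against 11.74, 11.73 and 11.87 in the DMSO arrays. The ranges overlapped in all 3 genes, and the 95% intervals of their log2 changes lay between -0.18 and 0.33. GPI, the isomerase before this step, read 10.42, 10.57 and 10.49 in the SRPIN803 arrays, against 10.38, 10.31 and 10.52 in the DMSO arrays, also with overlap (0.09 ± 0.08, SE, limma adjusted p = 0.596).

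From aldolase to lactate dehydrogenase 0 of 12 genes were called, and 11 of them differed by less than 0.1 on the log2 scale. The 95% intervals of the 12 corresponded to folds between 0.784 and 1.20. ALDOA, which splits the 6-carbon sugar in most tissues, read 13.38, 13.36 and 13.38 in the SRPIN803 arrays, against 13.43, 13.32 and 13.41 in the DMSO arrays. ALDOC, best known from brain, read 7.42, 7.56 and 7.61 in the SRPIN803 arrays, against 7.39, 7.49 and 7.52 in the DMSO arrays. Neither aldolase separated the groups. TPI1, which interconverts the triose phosphates, differed by -0.02 ± 0.05 on the log2 scale (SE).

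GAPDH, the dehydrogenase of the triose step and a common reference transcript, read 14.28, 14.29 and 14.30 in the SRPIN803 arrays, against 14.30, 14.29 and 14.31 in the DMSO arrays. The 95% interval of its log2 change ran from -0.13 to 0.11. The GAPDH control probe sets, which show how complete the labelled RNA is, had a 5′ minus 3′ difference of -0.42 ± 0.06 in SRPIN803 and -0.40 ± 0.02 in DMSO (log2, SD, n = 3 each). In the actin control probe sets it was larger and less even, -1.76 ± 0.36 in SRPIN803 and -1.77 ± 0.31 in DMSO (log2, SD, n = 3 each). Over the 6 arrays the actin difference ran from -2.16 (SRPIN803 replicate 1) to -1.41 (DMSO replicate 3). PGK1, the first ATP-forming kinase, read 13.26, 13.20 and 13.17 in the SRPIN803 arrays, against 13.12, 13.13 and 13.13 in the DMSO arrays. These groups did not overlap, but the log2 change of 0.08 ± 0.06 (SE) was not called (limma adjusted p = 0.483). In all, the groups did not overlap in 6 of the 33 members (18.2%), against 25.6% of all genes.

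BPGM, which makes 2,3-bisphosphoglycerate, read 7.85, 8.03 and 8.08 in the SRPIN803 arrays, against 8.13, 8.18 and 8.20 in the DMSO arrays. Every SRPIN803 array was below every DMSO array, and the log2 change of -0.18 ± 0.07 (SE) was not called (limma adjusted p = 0.231). Its relative PGAM1, the phosphoglycerate mutase of glycolysis, read 13.27, 13.17 and 13.25 in the SRPIN803 arrays, against 13.23, 13.26 and 13.25 in the DMSO arrays. Those ranges overlapped. The enolase genes ENO1 and ENO2 both differed by 0.02 to 0.03 on the log2 scale, with overlap between groups.

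At the end of the pathway, PKM, the pyruvate kinase outside liver and red cells, read 9.39, 9.48 and 9.36 in the SRPIN803 arrays, against 9.40, 9.18 and 9.43 in the DMSO arrays. LDHB, the lactate dehydrogenase subunit typical of heart, read 13.85, 13.79 and 13.77 in the SRPIN803 arrays, against 13.80, 13.78 and 13.80 in the DMSO arrays. The groups overlapped in both, and in LDHA, the subunit typical of muscle, at 0.05 ± 0.06 on the log2 scale (SE). A dim second probe set of PKM at a level of 5.91 had SRPIN803 arrays of 5.77, 5.80 and 5.78, against 5.95, 6.17 and 5.98 in DMSO, which did not overlap. It missed the threshold in the fit over all probe sets (log2 change -0.25 ± 0.08, SE, limma adjusted p = 0.176).

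Of the members 7, all between aldolase and lactate dehydrogenase, had a mean level above 13, where the highest level of any gene was 14.77. Their log2 changes lay between -0.02 and 0.08. Whether bright probe sets are compressed on these arrays was not tested.

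**Figure D3:**
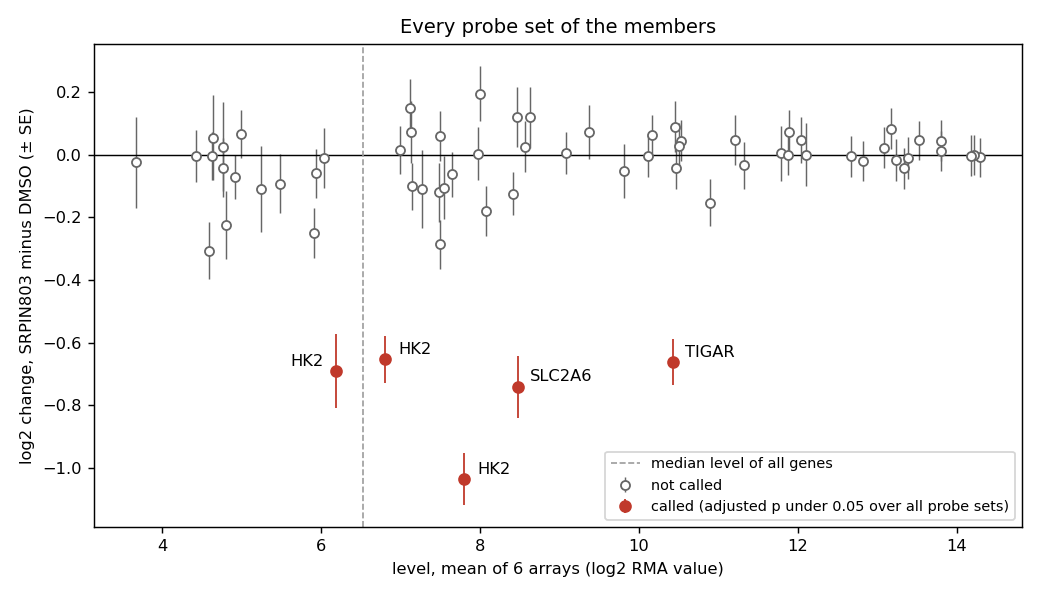
Log2 change (SRPIN803 minus DMSO, ± SE from limma) of each of the 67 probe sets of the members against its mean level over the 6 arrays (log2 RMA value); filled red points have an adjusted p under 0.05 over all probe sets, and the dashed line is the median level of all genes (6.53). All 5 called probe sets lie below 0: 3 of HK2 and 1 each of SLC2A6 and TIGAR.

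Of the 67 probe sets of the members 5 were called (2.22% of all probe sets were), all lower, and they belong to HK2, SLC2A6 and TIGAR alone. Of the 67, 51 lay above the median level of all genes, 4 of the 5 called ones among them. Most of the 67 were thus brighter than the array medians of 5.25 to 5.28. No share of probe sets matched for level was taken, so the comparison with 2.22% does not show an excess. Of the 33 members 21 have a probe set whose name lacks the suffixes _x_at and _s_at, which mark probes shared with other transcripts. The rest, GAPDH and LDHA among them, may take signal from related copies. So may SLC2A1, TPI1, PGK1, ENO1 and UGP2, which are among the 21 but were read from a brighter probe set with such a suffix. The dimmest ENO1 probe set, at a level of 4.59, differed by -0.31 ± 0.09 on the log2 scale (SE) without being called (limma adjusted p = 0.148).

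Among the 5 glycogen genes 0 were called. GYS1, the glycogen synthase of tissues other than liver, read 7.02, 7.08 and 7.19 in the SRPIN803 arrays, against 7.14, 7.21 and 7.24 in the DMSO arrays. GBE1, the branching enzyme, read 11.87, 11.91 and 12.001 in the SRPIN803 arrays, against 11.82, 11.90 and 11.85 in the DMSO arrays. Both overlapped between groups. The mutase genes PGM1, which links glucose 6-phosphate to glycogen, and PGM2 differed by -0.04 ± 0.06 and -0.0039 ± 0.060 on the log2 scale (SE). UGP2, which makes UDP-glucose, differed by -0.0019 ± 0.053, with all 6 arrays between 11.87 and 11.89.

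Enzymes that run the pathway backwards were not called either. FBP1, the fructose bisphosphatase of gluconeogenesis, read 4.79, 4.90 and 4.95 in the SRPIN803 arrays, against 4.98, 4.93 and 4.94 in the DMSO arrays. It was the 1 member below the median level of all genes. G6PC3, the widely expressed glucose 6-phosphatase, read 10.48, 10.52 and 10.56 in the SRPIN803 arrays, against 10.47, 10.42 and 10.59 in the DMSO arrays. The groups overlapped in both genes.

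Genes next to these in the pathway were read from 4 lists, of which 72 genes had a probe set of their own and 11 were not analysed here. Of the 72, 3 rose and 0 fell (4.17%, against 5.84% of all genes called). Among 11 other glucose transporters 2 rose. SLC2A12 (GLUT12) read 7.89, 7.74 and 7.97 in the SRPIN803 arrays, against 7.40, 7.29 and 7.26 in the DMSO arrays, without overlap. It rose 1.46-fold (95% confidence interval 1.29 to 1.65, limma adjusted p = 0.00908). Its second, dim probe set at a level of 5.49 differed by 0.27 ± 0.25 (SE), and with the mean of both the gene was not called (log2 change 0.41, limma adjusted p = 0.197). Without DMSO replicate 3 the call was also lost (adjusted p = 0.0507).

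SLC2A10 (GLUT10), known from arterial tortuosity syndrome, read 7.85, 8.10 and 7.998 in the SRPIN803 arrays, against 7.55, 7.66 and 7.57 in the DMSO arrays. It rose 1.31-fold (95% confidence interval 1.16 to 1.48, limma adjusted p = 0.0295), and the groups did not overlap. The call held without SRPIN803 replicate 1 and was lost with any other array left out (adjusted p 0.0736 to 0.117). Its 1 probe set was not called in the fit over all probe sets (limma adjusted p = 0.0611).

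Among 24 other glycogen genes 1 rose, PPP1R3B, a subunit that brings protein phosphatase 1 to glycogen. It read 9.21, 9.48 and 9.51 in the SRPIN803 arrays, against 8.54, 8.67 and 8.63 in the DMSO arrays, which did not overlap. The rise was 1.72-fold (95% confidence interval 1.49 to 1.99, limma adjusted p = 0.00503). It was called in each of the 6 fits that left out an array (log2 change 0.73 to 0.88). Its 2 other probe sets lay below the median level of all genes, differed by 0.54 ± 0.22 and 0.11 ± 0.08 (SE) and missed the threshold over all probe sets. Among 24 other enzymes of glycolysis and gluconeogenesis and 13 of the pentose phosphate pathway 0 were called in limma, with 6 and 0 at an unadjusted p under 0.05. The 6 of 24 make 25%, against 19.5% of all genes.

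**Figure D4:**
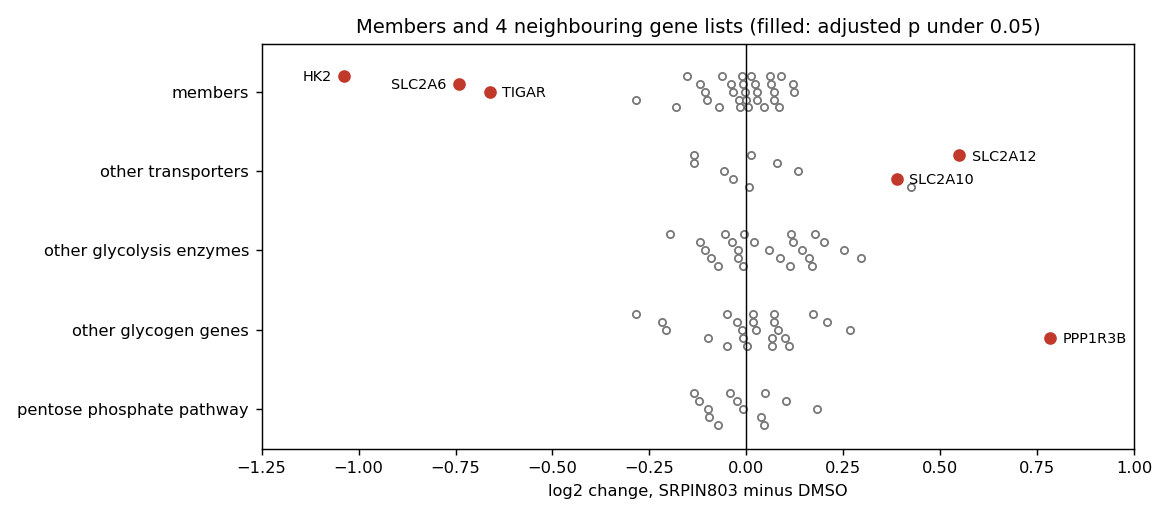
Log2 change (SRPIN803 minus DMSO) of the 33 members and of the 72 genes in 4 neighbouring lists, 1 point per gene spread vertically for legibility; filled red points have an adjusted p under 0.05. The called members, HK2, SLC2A6 and TIGAR, lie below 0, and the called neighbours, SLC2A12, SLC2A10 and PPP1R3B, above it.

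TXNIP, an arrestin-family protein that restrains glucose uptake, read 9.67, 9.69 and 9.62 in the SRPIN803 arrays, against 6.67, 6.90 and 6.89 in the DMSO arrays. PDK4, the kinase that holds back entry of pyruvate into the mitochondrial cycle, read 7.59, 7.28 and 7.57 in the SRPIN803 arrays, against 4.65, 4.13 and 4.24 in the DMSO arrays.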

How the data were processed

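RNA of 6 samples was hybridised to Affymetrix 3' arrays, per the labels. The authors deposited log2 values for every probe set, and RMA is the tool named in the submitters' processing notes, without a version. They were used as deposited. Ranked by size, values at the same rank differed between arrays by at most 0.137, as after quantile normalization, which hides a change in total RNA per cell. RMA compresses changes of dim probe sets. Arrays have no read depth, and 3 per group limit the precision.

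Of 54675 probe sets 62 were controls, and 41091 named 1 gene in the platform annotation, 1801 several, while 11721 are unnamed here. Each of 19775 genes was read from its brightest probe set. SRPIN803 was tested against DMSO (R 4.3.3, limma 3.58.1: lmFit, then eBayes, with no term but the group, two-sided), adjusted by Benjamini-Hochberg over all genes, and likewise over all 54613 probe sets other than controls. The test was tested on simulated data. Alternatives were the replicate block, each array left out, a dim filter, other probe set choices, 3 normalizations, a variance trend, array weights and other thresholds.

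Members, lists and tests were chosen with earlier results of these data known. Array-by-array values are given for called members and, in steps without one, for the member with the smallest p and the brightest. Those of SLC2A1, SLC2A3, HK1, HKDC1 and PFKFB4 were added after their values were seen. Called genes of the neighbouring lists are named, and TXNIP and PDK4 were added. Promoters came from RefSeq (GRCh38.p14). Plots used matplotlib 3.10.9 in Python 3.11.15.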

Additional observations from a re-analysis of the deposited data

How the results depend on the processing

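In the fits by gene the count of 3 called members, the same 3 genes each time, did not fall under any alternative run, and it was 4, with PFKFB4 added, among genes above the median level, with a variance trend and at an adjusted p under 0.10. HK2 changed by -1.09 to -0.79, SLC2A6 by -0.82 to -0.64 and TIGAR by -0.69 to -0.61 over all alternatives. In fits by gene that left out an array their adjusted p was at most 0.0346. PFKFB4 was at -0.12 with the mean of its probe sets. Over all genes 1154 were called, and 324 to 687 with 1 array left out, fewest without DMSO replicate 3. The count was 1943 among genes above the median level, 1965 with a variance trend, 285 at an adjusted p under 0.01 and 1991 under 0.10. Of 5 called member probe sets, 2 to 5 were called when an array was dropped (2 in the fits lacking DMSO replicate 2 or 3) and 3 at an adjusted p under 0.01. The only SLC2A6 probe set was among those lost without DMSO replicate 1, 2 or 3, at 0.01, and with the replicate block. Of 30 members not called, 11 changed sign under some alternative. The cause was not tested. Replicate numbers are shared by both groups, but deviations of same-numbered arrays correlated at 0.18, -0.06 and 0.11, so the numbers were not taken as pairs; with the replicate block 689 genes, 3 members and 3 member probe sets were called. SLC2A12 was at 0.27 on its probe set without a shared-probe suffix.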
